A study of Oryctolagus cuniculus with 2 samples.

Results

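The ON bipolar cell signalling cascade was read from retinal RNA of Dutch rabbits with and without retinal vein occlusion (RVO). The set was defined by name and holds 10 genes: the receptor GRM6, the channel TRPM1, the synaptic proteins NYX, LRIT3 and GPR179, the kinase PRKCA, the G protein partners PCP2 and GNG13, and the calcium sensors CABP2 and CABP5. A gene was measured when a probe set, the group of short probes that reads 1 transcript, carried its symbol alone in the platform annotation. By this rule 8 of the 10 genes were found, each by 1 probe set, among 15605 genes in all. All 8 also passed a filter that asks for a log2 signal of at least 5 in either array, which left 12724 genes, the genes called measured here. No probe set carried GNG13 or CABP2 alone in the annotation used here, so neither is described.

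The RVO sample was retina of an eye whose veins had been closed with an argon laser, in rabbits anesthetized with ketamine and xylazine. The study's discussion also names the dye Rose Bengal in this photocoagulation. The Control sample was retina without RVO, and both were taken on the seventh day. According to the study's methods, RVO was induced in the right eye and the left eye of the same animals served as control, and the lasered spot was cut out before RNA was taken. Each condition was hybridized to 1 Rabbit Gene 1.0 ST array, and the sources used here do not give the age or sex of the rabbits or how many retinas went into each RNA sample. Values are log2 signals after RMA normalization, so a difference of 1 is a 2-fold change, and differences are given as RVO minus Control. Values "in Control" and "in RVO" are those of these arrays. A single array per condition gives no replicate error, and no difference was tested.

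ON bipolar cells are the retinal interneurons that respond to an increase in light. In darkness photoreceptors release glutamate, which acts on mGluR6, the product of GRM6, and through the G protein Go keeps the TRPM1 cation channel closed. Light lowers glutamate release, TRPM1 opens and the cell depolarizes, which gives the b-wave of the electroretinogram. In humans, loss of GRM6, TRPM1, NYX, LRIT3 or GPR179 causes a form of stationary night blindness in which this step is missing.

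All 8 measured genes had a lower signal in the RVO array than in the Control array, by a small and similar amount. None was lower or higher by over 2-fold. Among all 12724 genes, 56.0% had a difference below 0, 0.479% were lower by over 2-fold and 3.50% were higher by over 2-fold. The median log2 difference of the 8 genes was -0.39, or 0.764-fold, against -0.04 for all genes measured. The differences lay between -0.44 and -0.13, with an SD between genes of 0.11. This SD describes how the genes varied among themselves and says nothing about other animals. With a limit of 1.5-fold still none of the 8 genes was lower, against 3.03% of all genes.

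**Figure D1:**
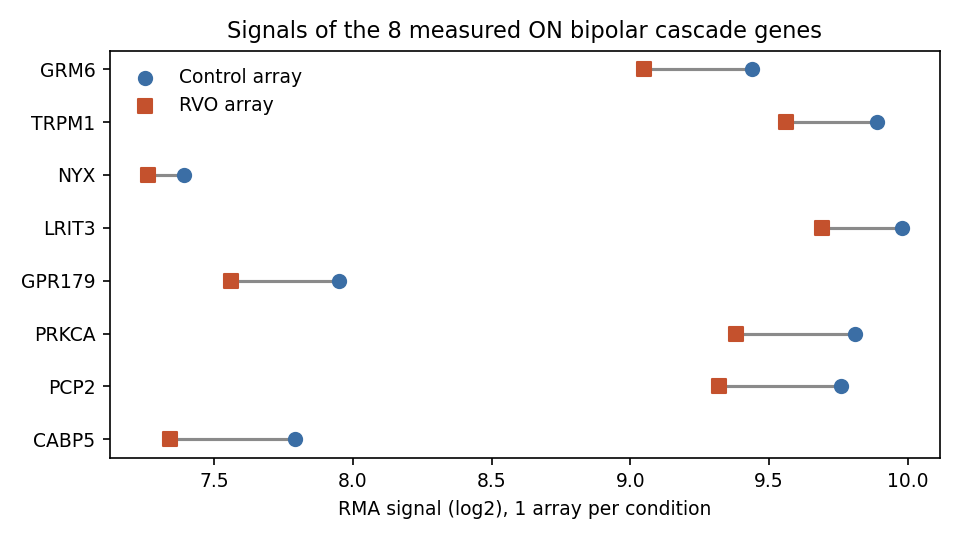
Log2 RMA signal (x axis) of each of the 8 measured genes in Control (circles) and the RVO array (squares), 1 array per condition, with a line joining the 2 values of a gene. In every pair the RVO square lies left of the Control circle, from the smallest step of -0.13 for NYX to -0.44 for PCP2 and CABP5.

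The receptor gene GRM6 (NCBI gene 100009501) had a log2 signal of 9.44 in Control and 9.05 in RVO. The difference was -0.39, or 0.765-fold. Of all genes measured, 9.47% had a more negative difference. TRPM1 (NCBI gene 100343239), the channel at the end of the cascade, had 9.89 in Control and 9.56 in RVO. Its difference was -0.33, or 0.798-fold, and 13.1% of genes had a more negative one. The differences of the channel and of the receptor that controls it were close, and 1 array per condition cannot order them.

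Nyctalopin, the product of NYX, and LRIT3 are leucine-rich repeat proteins that hold TRPM1 at the dendritic tip. NYX (NCBI gene 100343596) had a log2 signal of 7.39 in Control and 7.26 in RVO, the smallest difference of the set at -0.13, or 0.916-fold. It lay well inside the distribution of all genes, of which 35.8% had a more negative difference. LRIT3 (NCBI gene 100357507), which in the mouse is supplied by photoreceptors, had 9.98 in Control and 9.69 in RVO. The difference was -0.29, or 0.817-fold, with 15.7% of genes more negative. GPR179 (NCBI gene 100351284), an orphan receptor that anchors regulators of G protein signalling beside mGluR6, had 7.95 in Control and 7.56 in RVO. It differed by -0.39, or 0.762-fold, which is close to the value of GRM6.

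PRKCA, PCP2 and CABP5 act inside the cell. PRKCA (NCBI gene 100037720) encodes protein kinase C alpha, the most used marker of rod bipolar cells. Its log2 signal was 9.81 in Control and 9.38 in RVO, a difference of -0.43, or 0.745-fold, and 7.53% of genes had a more negative one. PCP2 (NCBI gene 100355243), a modulator of Go found in ON bipolar cells and cerebellar Purkinje cells, had 9.76 in Control and 9.32 in RVO. It differed by -0.44, or 0.739-fold. CABP5 (NCBI gene 100340724), a calmodulin-like calcium sensor of bipolar cells, had 7.79 in Control and 7.34 in RVO, a difference of -0.44, or 0.736-fold. It was the lowest of the 8 genes, and 881 of the 12724 genes, or 6.92%, lay below it.

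The 5 genes of the synaptic complex (GRM6, TRPM1, NYX, LRIT3 and GPR179) had a median of -0.33, and the 3 intracellular genes (PRKCA, PCP2 and CABP5) had a median of -0.44. These medians were closer to each other than the probe set SD of 0.19 given below, and their difference was not tested. NYX stood 0.17 above the next gene, LRIT3. Without NYX the other 7 genes spanned 0.15 on the log2 scale, with an SD of 0.06, and their median was unchanged at -0.39. The range of the 8 genes, from -0.44 to -0.13, took in 3674 of the 12724 genes, or 28.9%. A further 64.2% lay above it. As a technical yardstick, the difference varied between probe sets of the same gene with a pooled SD of 0.19 over 118 genes that had several. Of the 8 genes, 7 differed from 0 by more than this SD and NYX did not. Many other genes did so as well, in both directions. In steps of 0.1 from -0.2 to 0.2, there were 1862, 2028, 1822 and 1137 of the 12724 genes. All the rest differed from 0 by more than this SD, so passing it does not set the 7 genes apart. The share of all genes lower by more than this SD lay between 15.7% (those below LRIT3 at -0.29) and 35.8% (those below NYX at -0.13). Genes higher by more than this SD come on top of that share. That SD leaves out errors shared by a whole array and differences between animals.

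**Figure D2:**
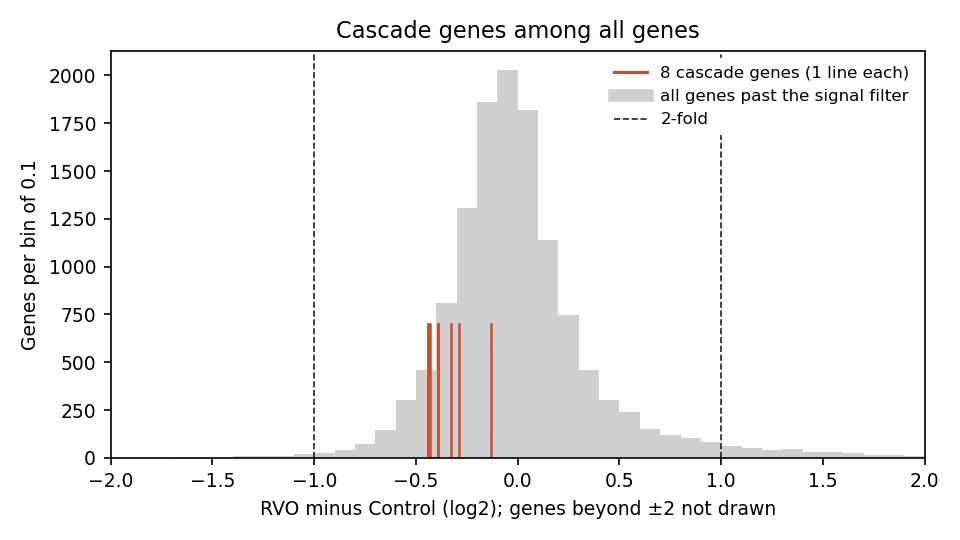
Number of genes per bin of 0.1 (y axis) by log2 difference, RVO minus Control (x axis), for the 12724 genes past the signal filter (grey), with 1 vertical line for each of the 8 cascade genes and dashed lines at 2-fold. The cascade genes sit on the left shoulder of the distribution, between -0.44 and -0.13, and none reaches the dashed line.

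The 8 genes were also placed among genes of like signal. For GRM6, the 837 genes with a mean signal within 0.25 of it had a median difference of -0.05, and 5.97% of them were more negative. For PCP2, 5.78% of 709 such genes were more negative, for PRKCA 6.76% of 680 and for CABP5 7.21% of 1289. The corresponding shares were 8.87% for GPR179, 10.6% for TRPM1, 12.8% for LRIT3 and 32.6% for NYX. These shares place single genes and are not tests.

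The genes listed as other genes of the mGluR6 cascade were less uniform than the 8. Of 11 listed genes 10 were measured, 8 had a difference below 0, 1 was lower by over 2-fold and 0 were higher by as much, with a median of -0.43. Most listed regulators that switch Go off were among the lower ones, except RGS11, described below. Values from whole retina do not show which cells gave these signals. RGS7, one of the RGS proteins that GPR179 anchors, had a log2 signal of 9.11 in Control and 8.42 in RVO, a difference of -0.69. GNB5, the beta subunit that binds RGS7 and RGS11, had 11.08 and 10.43, a difference of -0.65. The membrane anchors of these RGS proteins had lower signals too, with RGS7BP at 8.51 and 7.52 and RGS9BP at 8.35 and 7.85. RGS7BP stood at 0.501-fold, just within the 2-fold limit, and RGS9BP differed by -0.50.

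RGS11, the partner of RGS7 in ON bipolar cells, did not share this direction. Its log2 signal was 6.65 in Control and 6.71 in RVO, a difference of 0.06. GNB3, the beta subunit of the ON bipolar G protein and of cone transducin, was the highest of the list. It had 9.95 in Control and 10.80 in RVO, a difference of 0.85, or 1.80-fold. The 1 gene of the list beyond 2-fold was RIC8B, at 10.70 and 9.66, a difference of -1.04. RIC8B is a chaperone of G protein alpha subunits of the Gs family, while mGluR6 acts through Go. Its value is therefore not read as one of this cascade, although the counts and median of the list include it. Without RIC8B the list ran from RGS7BP at 0.501-fold to GNB3 at 1.80-fold, still wider than the 8 genes, at 0.736-fold to 0.916-fold. GNAI1, an alpha subunit of the Gi family, differed by -0.16, and the LRIT3 relatives LRIT1 and LRIT2 differed by -0.27 and -0.37. No probe set carried GNAO1, the alpha subunit of Go itself, as its only symbol, and it is not described.

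On the photoreceptor side of the synapse 9 of 11 listed genes were measured, with a median of -0.27 and none beyond 2-fold. The calcium channel that drives glutamate release was lower in each of its 3 subunit genes: the pore subunit CACNA1F, at 10.88 in Control and 10.60 in RVO, differed by -0.27, CACNA2D4 by -0.45 and CACNB2 by -0.46. SLC17A7, the vesicular glutamate transporter that fills the vesicles, had 10.18 and 9.69, a difference of -0.48. The active zone genes PCLO and BSN differed by -0.32 and 0.00. CTBP2, which has the ribbon protein RIBEYE among its products, differed by 0.07, a value read by gene and not split by product. EGFLAM, which encodes pikachurin, the matrix protein that joins the photoreceptor terminal to GPR179, had 9.35 in Control and 9.93 in RVO, a difference of 0.57. Its receptor dystroglycan, DAG1, had 8.19 and 8.54, a difference of 0.35. Values from whole retina do not show which cells gave the EGFLAM and DAG1 signals. GPR179 differed by -0.39 and its extracellular partner EGFLAM by 0.57, in opposite directions.

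**Figure D3:**
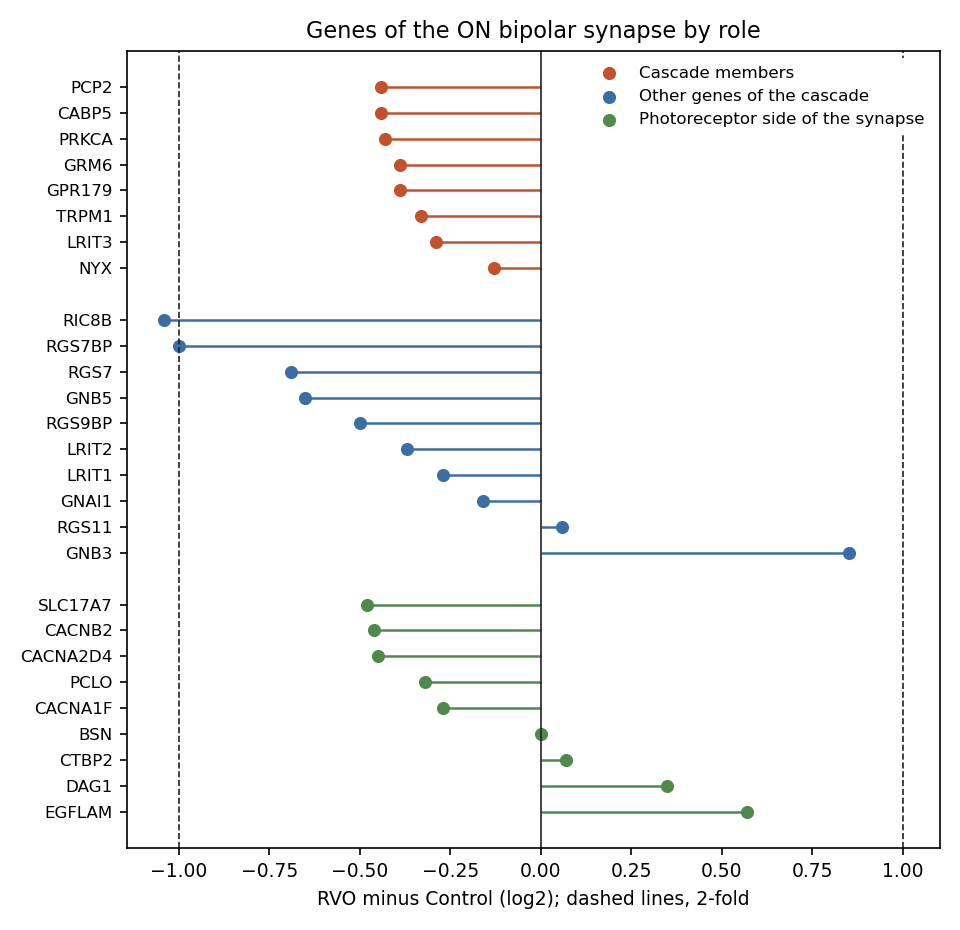
Log2 difference, RVO minus Control (x axis), of each measured gene of the cascade, of the other genes of the mGluR6 pathway and of the photoreceptor side of the synapse (y axis), with dashed lines at 2-fold. The 8 cascade genes lie within 0.31 of each other, while the genes listed for the pathway run from -1.04 for RIC8B to 0.85 for GNB3. RIC8B is a chaperone of Gs family subunits and its value is not read as one of the Go cascade.

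Genes related to the members spanned a wider range than the members among kinase C genes, TRPM channels and a broad list of calcium sensors. This was not so among group III glutamate receptors. Of the kinase C genes besides PRKCA, 6 of 8 listed were measured and 3 were below 0, with a median of -0.08. PRKCB had a log2 signal of 8.10 in Control and 7.55 in RVO, a difference of -0.55. PRKCD had 5.44 and 6.54, a difference of 1.10, and was the 1 kinase C gene beyond 2-fold. The other group III glutamate receptors, GRM4, GRM7 and GRM8, differed by -0.41, -0.41 and -0.67. Of the TRPM channels besides TRPM1, 3 of 7 listed passed the signal filter, from TRPM8 at -0.60 to TRPM7 at -0.19, with a median of -0.51. The calcium sensor list joined CABP genes with visinin-type genes, which are not close relatives of CABP5. All 11 measured genes were below 0, with a median of -0.43. They ran from -1.29 for VSNL1, a neuronal calcium sensor and the 1 gene of this list beyond 2-fold, to -0.02 for HPCAL1. Both ends are visinin-type genes, while CABP1 and CABP7 differed by -0.43 and -0.19.

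Other gene lists drawn up for bipolar cells differed in how far they shared the members' direction. Their genes are not all confined to bipolar cells, and which cells gave the values was not tested. Genes listed for OFF bipolar cells, which respond to a decrease in light, were below 0 in 6 of 6 cases. Their median was -0.51, from KCNIP3 at -0.83 to NETO1 at -0.28. The glutamate receptor gene of these cells, GRIK1, had a log2 signal of 9.55 in Control and 9.02 in RVO. Transcription factors of bipolar cells were below 0 in 5 of 8 cases, near the 56.0% of all genes below 0, with a median of -0.13. ISL1, which ON bipolar cells share with ganglion and amacrine cells, had 8.50 and 7.89, a difference of -0.61. OTX2, shared with photoreceptors, had 10.58 and 10.84, a difference of 0.26, and the highest was FEZF2 at 0.29. Genes of bipolar output and inhibitory input had a median of -0.20 over 7 measured genes, from CPLX4, a complexin of ribbon synapses, at -0.60 to CALB1 at 0.02. CALB1 also stands in the list of horizontal cell genes.

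The cascade genes were next set beside lists for other cells of the same 2 arrays. The median was -0.41 for 7 rod genes, -0.43 for 8 cone genes and -0.39 for 9 amacrine genes, all of which were below 0. The cascade median of -0.39 lay among these values. Rod genes ran from ROM1 at -0.56 to SAG at -0.15, cone genes from GNAT2 at -0.79 to CNGA3 at -0.19, and amacrine genes from CALB2 at -1.62, the 1 beyond 2-fold, to CHAT at -0.14. Ganglion cell genes had a median of -0.81 over 12 measured genes. Of these, 5 were lower by over 2-fold, NRN1 at -3.73, SLC17A6 at -2.22, NEFH at -2.10, NEFL at -1.25 and POU4F1 at -1.0, and the highest was ISL2 at 0.01. Horizontal cell genes had a median of 0.02, with 3 of 7 below 0, from LHX1 at -0.43 to TPM3 at 1.53. TPM3, a tropomyosin gene, is not confined to horizontal cells, and which cells gave its value was not tested. Müller glia genes had a median of 0.43 over 13 genes, 5 of them below 0, from RLBP1 at -0.67 to CLU at 0.85. Whether these medians differ was not tested, as there was 1 array per condition.

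**Figure D4:**
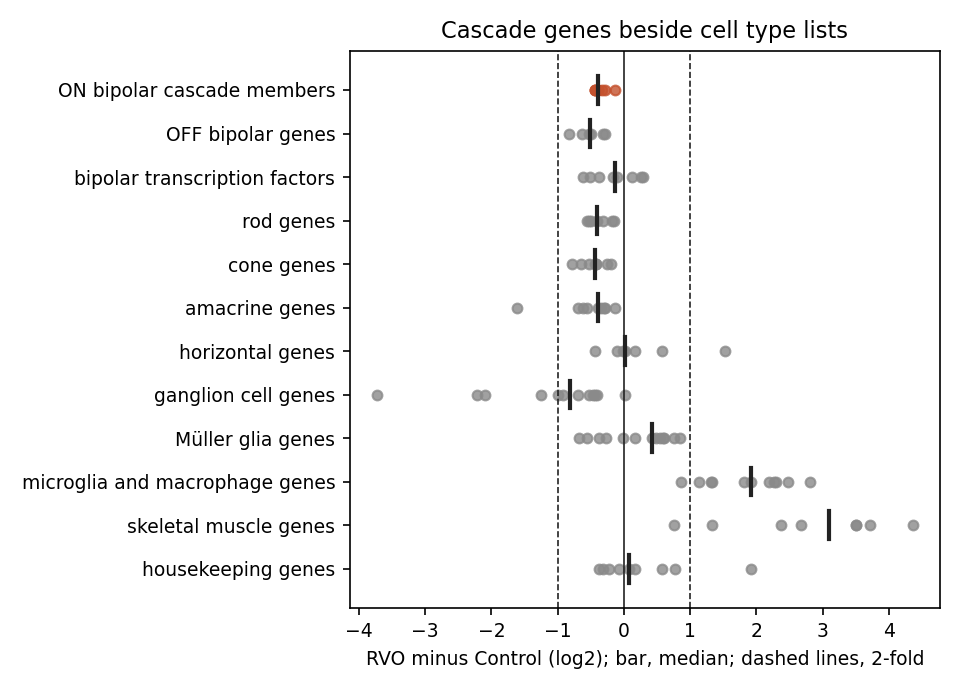
Log2 difference, RVO minus Control (x axis), of the measured genes of each list (points), with the median as a bar and dashed lines at 2-fold. The cascade genes, with a median of -0.39, overlap rod (-0.41), cone (-0.43) and amacrine (-0.39) genes and lie apart from microglia and macrophage (1.92) and skeletal muscle (3.09) genes.

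Genes of phagocytes and of skeletal muscle had higher signals after RVO. All 11 measured genes of microglia and macrophages were above 0 and 10 of them were higher by over 2-fold, from C1QB at 0.86 to CTSS at 2.80, with a median of 1.92. Their signals, summed on the linear scale, were 0.0225% of the sum over all genes in Control and 0.0846% in RVO. All 8 measured skeletal muscle genes were above 0 and 7 were higher by over 2-fold, from MYLPF at 0.76 to MYL1 at 4.36, with 0.0127% and 0.0938% of the summed signal. The 8 cascade genes made up 0.117% in Control and 0.0907% in RVO. The part of muscle and phagocyte RNA in the cascade values was not tested. In whole retina, fewer ON bipolar cells and less RNA per cell cannot be told apart.

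Markers of retina were strong on both arrays. The photoreceptor genes SAG and RCVRN had log2 signals of 12.95 and 12.96 in Control and 12.80 and 12.92 in RVO. The Müller glia markers GLUL and RLBP1 had 11.07 and 9.28 in Control and 10.51 and 8.61 in RVO, both lower, while 8 of the 13 Müller glia genes were above 0. Of 9 measured housekeeping genes 1, B2M at 1.92, was beyond 2-fold, and their median was 0.07, with GAPDH the lowest at -0.37.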

How the data were processed

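Retinal RNA of 1 Control and 1 RVO sample was measured on 1 Rabbit Gene 1.0 ST array each. The authors deposited log2 signals from RMA, run in R: background correction, quantile normalization across the arrays and a summary for each probe set. These were used as they stand. Array medians were 6.25 and 6.23. Of 26193 probe sets, 15816 carried 1 symbol in the platform annotation, 376 several and 10001 none. A symbol was read from its probe set with the highest mean, and a gene counted as measured when either signal reached 5.00, the limit in the study's methods, which left 12724 genes. The RefSeq table of assembly mOryCun1.1 held the gene identifiers of all 8 measured members and named 1 listed gene by an older symbol (MYLPF). Sequences of the members were not used here. The number of arrays limits the precision. Differences were counted by size with no test, in Python 3.11.15 with pandas 2.3.3, and the code was checked on simulated data. The genes and lists were chosen with earlier results of these data known. Named were all members, every measured gene of the pathway and synapse lists, and elsewhere the lowest, the highest and those beyond 2-fold, which are given by count and range for phagocyte and muscle genes; examples outside this rule were added after their values were seen. Alternatives were array centring, repeated quantile normalization, removal of a lowess trend (fraction 0.3), the mean of all probe sets, other signal filters and a 1.5-fold limit.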

Additional observations from a re-analysis of the deposited data

How the results depend on the processing

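Under 7 alternatives (arrays centred on their medians, quantile normalization repeated, the trend with signal removed, the mean of all probe sets, no signal filter, a filter at 6 and, chosen after the data were seen, differences centred on the median of all genes) the 56 values of the 8 cascade genes all stayed below 0, between -0.46 and -0.08, and shifted by at most 0.05. Their median ranged from -0.41 to -0.35, and none of the 8 genes was beyond 2-fold, or beyond 1.5-fold as deposited. Each gene has 1 probe set and a signal above 6, so the choice of probe set and the filters could not alter its value. The median of bipolar transcription factors ranged from -0.16 to -0.05 and that of TRPM channels from -0.53 to -0.35. With the limit at 1.5-fold, 386 of all genes were lower and 923 higher, against 61 and 445. No paired analysis was possible because each condition has 1 array. Which values would recur in other animals cannot be told from 1 array per condition.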

Other observations

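Gene families related to the cascade proteins were read as well. Of 10 measured genes for leucine-rich repeat proteins of synapses, the kind to which LRIT3 belongs, 9 had a log2 difference below 0, with a median of -0.37. LRIT1 and LRIT2, at -0.27 and -0.37, are among them and also stand in the list of other cascade genes. They ran from LRRTM3, an organizer of glutamatergic synapses, at log2 signals of 7.11 and 6.43 and a difference of -0.68, to FLRT2, an adhesion and guidance protein, at 0.11. All 7 measured genes for other RGS proteins and for GoLoco proteins, the family of PCP2, were below 0, from GPSM2 at -0.62 to RGS14 at -0.18, with a median of -0.31. PCP2 differed by -0.44 and LRIT3 by -0.29.

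G protein gamma subunits, the family of the unmeasured GNG13, lay on both sides of 0. Of 7 measured genes 4 were below 0, with a median of -0.33. GNG4 had a log2 signal of 8.41 in Control and 7.33 in RVO, a difference of -1.08 and the 1 gene of the family beyond 2-fold. The rod transducin subunit GNGT1 had 11.71 and 11.29, a difference of -0.41. GNG5, GNG11 and GNG2 were higher, at 0.97, 0.61 and 0.42, and none of these passed 2-fold.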
